A study of Homo sapiens with 4 samples.

Results

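The cytosolic ribosomal protein genes encode the protein subunits of the ribosome that translates cytoplasmic mRNA. Their members were taken by symbol, as protein-coding genes named RPL, RPS or RPLP with a number, plus RPSA, without the RPS6K kinases and RPS19BP1. This gave 90 of 20037 protein-coding genes with a chromosomal position in RefSeq (GRCh38.p14). Of these, 31 belonged to the small subunit, 43 to the large subunit and 3 to the stalk. A further 10 were paralogues (symbols ending in L or L and a number, with RPS4Y1 and RPS4Y2), and 3 were read-through genes, annotated across a ribosomal protein gene and its neighbour.

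Occupancy of USF1 was measured by ChIP-seq in Huh7, a human hepatocellular carcinoma line, in which USF1 had been overexpressed. An anti-FLAG antibody was used for the precipitation, so the tag and not endogenous USF1 was targeted, and no IgG library or library of untagged cells was used here. There were 2 IP libraries (IP 1 and IP 2), each set against the input chromatin of its own number (input 1 and input 2), and the labels do not say whether the numbers mark separate cultures. The IP libraries held 47165647 and 43942638 tags after duplicate removal, and the inputs 46345938 and 43562726, per the file headers. The deposited files are peak lists: list 1 (IP 1 against input 1) with 14300 peaks and list 2 (IP 2 against input 2) with 27325.

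Ribosomal protein genes are transcribed at high rates in growing cells, and their mRNAs carry a 5' terminal oligopyrimidine (TOP) tract through which mTORC1 signalling and LARP1 govern their translation. The small subunit reads the mRNA, the large subunit forms the peptide bond, and the stalk of RPLP0, RPLP1 and RPLP2 recruits the translation factors. USF1 is a bHLH-ZIP factor of the family that also holds MYC, MAX and the lysosomal regulator TFEB, and it binds the E-box CACGTG.

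A peak was assigned to a gene when its centre lay in the gene or within 1 kb of it, and a pair of peaks was called shared when both were assigned to the same gene and overlapped by at least 1 bp. Shared peaks lay at 14 of the 90 genes, led by the read-through gene RPL36A-HNRNPH2, then RPS28 and RPL13A. The promoter windows below, 250 bases before to 50 bases after a RefSeq start site of build GRCh38.p14, are shown because they lie under these peaks or hold an E-box. They are RPS28, RPL13A, RPLP2 and RPL24, the 4 genes whose shared peak at their own start site had the highest fold, by the lower of both lists. RPS19 (its inner start site) and RPL19 were added after their sequences were seen, because they hold CACGTG. Each runs 5' to 3' on the strand of the gene. Capitals mark CACGTG in the first 4 windows and other CANNTG hexamers in RPL24, while RPLP2 had neither.
RPS28 (chr19:8321246-8321545, plus strand): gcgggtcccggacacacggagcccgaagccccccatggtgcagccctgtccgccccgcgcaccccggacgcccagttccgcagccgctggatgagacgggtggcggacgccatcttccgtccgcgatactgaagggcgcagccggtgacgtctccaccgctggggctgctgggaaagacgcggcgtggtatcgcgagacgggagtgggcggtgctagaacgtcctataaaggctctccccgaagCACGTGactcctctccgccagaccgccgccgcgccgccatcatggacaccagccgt
RPL13A (chr19:49487358-49487657, plus strand): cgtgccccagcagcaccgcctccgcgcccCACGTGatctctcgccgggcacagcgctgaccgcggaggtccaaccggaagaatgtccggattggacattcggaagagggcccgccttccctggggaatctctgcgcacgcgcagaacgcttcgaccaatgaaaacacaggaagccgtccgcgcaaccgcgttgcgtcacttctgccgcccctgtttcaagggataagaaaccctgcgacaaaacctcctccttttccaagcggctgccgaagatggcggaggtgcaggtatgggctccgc
RPS19 (chr19:41860154-41860453, plus strand): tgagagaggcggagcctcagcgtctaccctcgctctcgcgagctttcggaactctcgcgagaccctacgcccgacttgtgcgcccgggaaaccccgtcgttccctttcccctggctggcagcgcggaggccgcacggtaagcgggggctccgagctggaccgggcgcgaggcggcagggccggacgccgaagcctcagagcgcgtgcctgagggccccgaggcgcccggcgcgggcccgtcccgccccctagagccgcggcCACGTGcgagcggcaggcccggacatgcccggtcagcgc
RPL19 (chr17:39200033-39200332, plus strand): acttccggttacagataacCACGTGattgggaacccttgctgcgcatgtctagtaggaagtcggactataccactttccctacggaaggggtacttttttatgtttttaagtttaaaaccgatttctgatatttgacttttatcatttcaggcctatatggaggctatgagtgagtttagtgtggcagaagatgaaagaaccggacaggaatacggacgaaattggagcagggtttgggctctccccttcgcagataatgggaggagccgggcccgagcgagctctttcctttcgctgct
RPLP2 (chr11:809717-810016, plus strand): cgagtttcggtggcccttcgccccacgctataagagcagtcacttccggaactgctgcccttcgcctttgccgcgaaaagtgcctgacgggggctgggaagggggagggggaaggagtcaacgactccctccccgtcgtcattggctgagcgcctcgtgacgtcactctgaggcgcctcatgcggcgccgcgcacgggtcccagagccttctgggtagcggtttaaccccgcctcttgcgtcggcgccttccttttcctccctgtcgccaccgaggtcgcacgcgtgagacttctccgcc
RPL24 (chr3:101686669-101686968, minus strand): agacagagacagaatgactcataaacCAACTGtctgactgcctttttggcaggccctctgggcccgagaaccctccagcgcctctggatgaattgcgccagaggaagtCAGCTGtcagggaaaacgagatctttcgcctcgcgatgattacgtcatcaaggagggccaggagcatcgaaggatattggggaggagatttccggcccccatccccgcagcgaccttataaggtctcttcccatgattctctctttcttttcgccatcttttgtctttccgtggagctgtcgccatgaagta

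CACGTG reads the same on both strands, and a gene was counted when any of its windows held it. It was present in 5 of the 72 ribosomal protein genes for which a window was given (6.94%). Of all 15843 protein-coding genes with windows of the same length, 10.9% held it. Counted by window, it was in 5 of 89 windows of ribosomal protein genes, against 8.34% of 22199 windows of protein-coding genes. The 5 genes were RPS28, RPL13A, RPS19, RPL19 and the paralogue RPL7L1, and all but RPL7L1 carried a peak over the motif. By shared peak, 3 of the 9 ribosomal protein genes with a shared start-site peak held CACGTG (33.3%), as did 673 of 2022 other genes with such a peak (33.3%). With no start-site peak in either list, 1 of 38 ribosomal protein genes held it (2.63%), against 6.45% of 10055 other genes. The looser CANNTG, which includes CACGTG, was in 6 of those 9 ribosomal protein genes (66.7%), against 73.0% of the other genes with a shared start-site peak. Over all genes with a window, it was in 38 of 72 ribosomal protein genes (52.8%), against 70.5% of all genes. A match in a window describes its letters and does not show a bound site.

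The E-box of RPS28 began 6 bases before the start site, and its centre lay 77.5 bp from the list 1 summit and 14.5 bp from the list 2 summit. In RPL13A the motif began 221 bases upstream, 35.5 bp and 28.5 bp from the summits. In RPL19, which had a peak in list 1 alone, the motif centre lay 4.5 bp from the summit. RPS19 went the other way: its motif was 676.5 bp and 707.5 bp from the summits, although both peaks spanned it.

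In list 1, 22 of the 90 ribosomal protein genes had a peak (24.4%, 95% Wilson interval 16.7 to 34.2%), and 25.9% of all protein-coding genes did. In list 2, 44 had one (48.9%, 38.8 to 59.0%), against 47.0% of all protein-coding genes. Shared peaks were at 14 (15.6%, 9.50 to 24.4%), against 16.8% of all genes. All 3 shares were near the background. Ribosomal protein genes are short, with a median length of 5136 bp against 24289 bp for the other protein-coding genes. Counting instead peaks within 1 kb of a given start site, the shares were 15 of 72 in list 1 (20.8%, all genes 16.5%), 28 of 72 in list 2 (38.9%, all genes 32.8%) and 9 of 72 shared (12.5%, all genes 12.8%). Within 1 kb of either gene end, a count added after the data were seen, they were 19 of 90 (21.1%, all genes 14.9%), 40 of 90 (44.4%, all genes 30.1%) and 12 of 90 shared (13.3%, all genes 11.3%). In list 2 the Wilson interval of this share was 34.6 to 54.7%, which lies above the share of all genes. These shares are descriptions with no test, and the intervals cover counting error only.

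**Figure D1:**
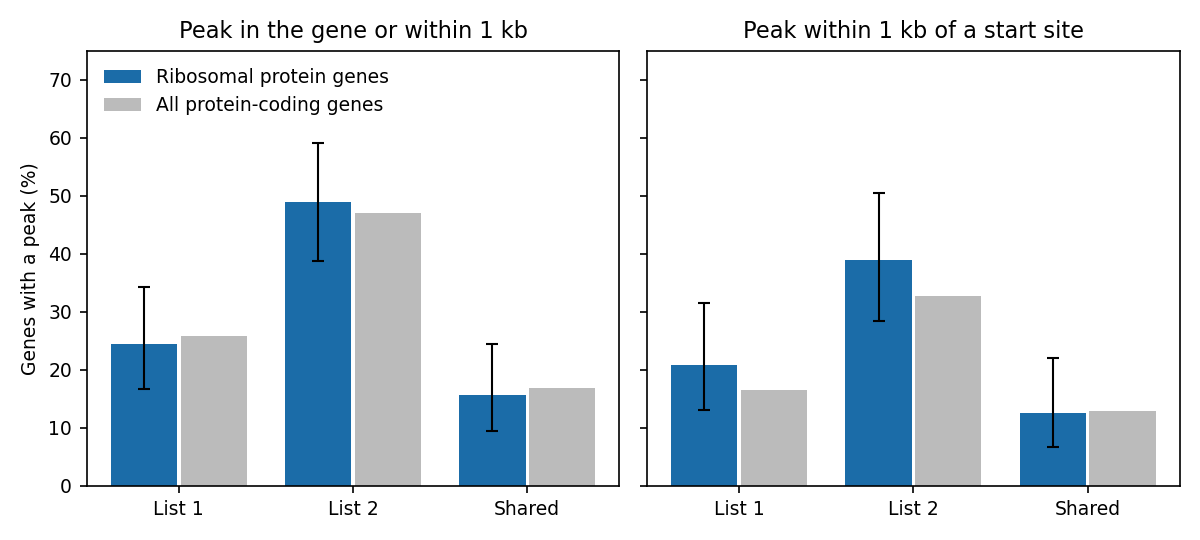
Percent of ribosomal protein genes (blue) and of all protein-coding genes (grey) with a peak in list 1, in list 2 or shared, for peaks in or within 1 kb of the gene (left) and within 1 kb of a start site (right). Whiskers are 95% Wilson intervals; in each pair of bars drawn here the grey bar ends within the whisker of the blue one, and the count within 1 kb of either gene end, where list 2 differs in this, is not drawn.

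By subunit, small subunit genes had peaks in 6 of 31 cases in list 1, 13 in list 2 and 4 shared. Large subunit genes, the stalk set apart, had them in 10 of 43, 23 and 7. The shares of shared peaks were 12.9% and 16.3%, with Wilson intervals of 5.13 to 28.9% and 8.12 to 29.97% that overlap. Over both lists 51 members had some peak, 15 in both lists, 7 in list 1 alone and 29 in list 2 alone, and 39 had none. This split is not given here for other genes, so the counts do not set the members apart. By start-site peaks, 38 of 72 members had none in either list, and 10055 of 15771 other protein-coding genes had none. The 14 shared genes made up 63.6% of the list 1 genes and 31.8% of the list 2 genes. Among other protein-coding genes these parts were 64.8% and 35.7%.

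Among the small subunit genes, RPS28, mutated in some families with Diamond-Blackfan anaemia, had the strongest peak. It held 132 tags over 1173 bp in IP 1 (chr19:8320873-8322045, 9.94-fold over input) and 169 tags over 1302 bp in IP 2 (chr19:8320763-8322064, 11.88-fold). Tag counts, folds, widths and false discovery rates (FDRs) were taken from the authors' files as given. The fold compares IP tags at the summit with the number that the peak caller expected there. The FDR of this peak was 7.41% in list 1 and 0.28% in list 2. The peak centres lay 37 bp and 82.5 bp upstream of the RPS28 start site.

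RPS15, a protein of the small subunit head, had 38 tags in IP 1 (5.05-fold) and 80 in IP 2 (7.87-fold). Its peaks covered 645 bp and 1620 bp, and their summits were 885 bp apart, the widest gap of any shared pair here. RPS19, the gene most often mutated in Diamond-Blackfan anaemia, had 102 tags in IP 1 (3.81-fold) and 125 in IP 2 (7.41-fold). The tag counts were close while the folds were not, and the list 1 FDR was 100% against 0.52% in list 2. For RPS29, a zinc-binding small subunit protein, distances were taken from the outer end of the annotated gene. Start sites of RPS29 beyond those given were not examined. The shared peak counted for RPS29 lay 12333.5 bp downstream of that outer end in list 1. Its list 1 centre was 203.5 bp from an end of RN7SL1. That gene encodes 7SL, the RNA of the signal recognition particle. The RPS29 peaks held 32 and 50 tags (6.58-fold and 6.21-fold).

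Among the large subunit genes, RPL13A, known in myeloid cells as part of a complex that silences inflammatory mRNAs, had 160 tags in IP 1 (chr19:49486773-49488520, 8.46-fold) and 149 in IP 2 (chr19:49486750-49488003, 11.73-fold). Its summits were 7 bp apart, the closest of the shared pairs. FDRs were 33.07% and 0.17%. RPL23A, which docks the signal recognition particle at the tunnel exit, had 66 tags in IP 1 (6.28-fold) and 77 in IP 2 (6.01-fold), with FDRs of 37.38% and 0.5%. The centre of its list 1 peak was 350.5 bp from an end of the gene. RPL24, at the interface with the small subunit, had 78 tags in each IP (5.55-fold and 5.56-fold).

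RPL18 had 78 tags in IP 1 (4.96-fold) and 89 in IP 2 (6.74-fold). RPL21 had 32 and 45 tags (5.83-fold and 3.91-fold), and RPL22, a large subunit protein that also binds other RNAs, had 37 and 48 tags (5.75-fold and 3.9-fold). At RPL21 and RPL22 the fold was lower in list 2 although the tag count was higher, and both had a list 1 FDR of 100%. RPL41, which encodes a very small basic peptide, had 67 and 100 tags (4.27-fold and 4.83-fold). Its peak was at the 3' end, 325 bp beyond the gene in list 1, and centred 26 bp from the start site of ZC3H10, a zinc finger gene.

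In the stalk, RPLP2 had 60 tags in IP 1 (5.68-fold) and 41 in IP 2 (8.85-fold), the reverse of RPL21: fewer tags and a higher fold in list 2. RPLP0, which anchors the stalk to the large subunit, had a peak in list 1 alone (72 tags, 4.52-fold, FDR 98.2%), and RPLP1 had none. Of the 10 paralogues, RPL39L, a paralogue of RPL39 best known from the testis, was the single gene with a shared peak (39 and 48 tags, 4.14-fold and 4.62-fold). RPS4Y1 and RPS4Y2 lie on chromosome Y, where neither list holds a peak.

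The read-through gene RPL36A-HNRNPH2 had the highest folds, 20.45 with 141 tags in IP 1 (chrX:101407660-101408832) and 17.86 with 148 tags in IP 2 (chrX:101407286-101408749), and an FDR of 0 in both. Its summits lay 17180 bp and 17236 bp downstream of the RPL36A-HNRNPH2 start site. Both summits were nearer to the start site of HNRNPH2, an RNA-binding protein, than to that of GLA, the lysosomal alpha-galactosidase. List 1 placed the centre 24 bp from the HNRNPH2 start site and 321 bp from that of GLA. List 2 placed the centre, unlike the summit, nearer to GLA, 92.5 bp from the GLA start site and 204.5 bp from that of HNRNPH2. The HNRNPH2 window held 2 CACGTG motifs, and the GLA window held none. These motifs were 8.5 bp and 24.5 bp from the list 1 summit, and 64.5 bp and 31.5 bp from the list 2 summit. RPL36A itself had no peak in either list.

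**Figure D2:**
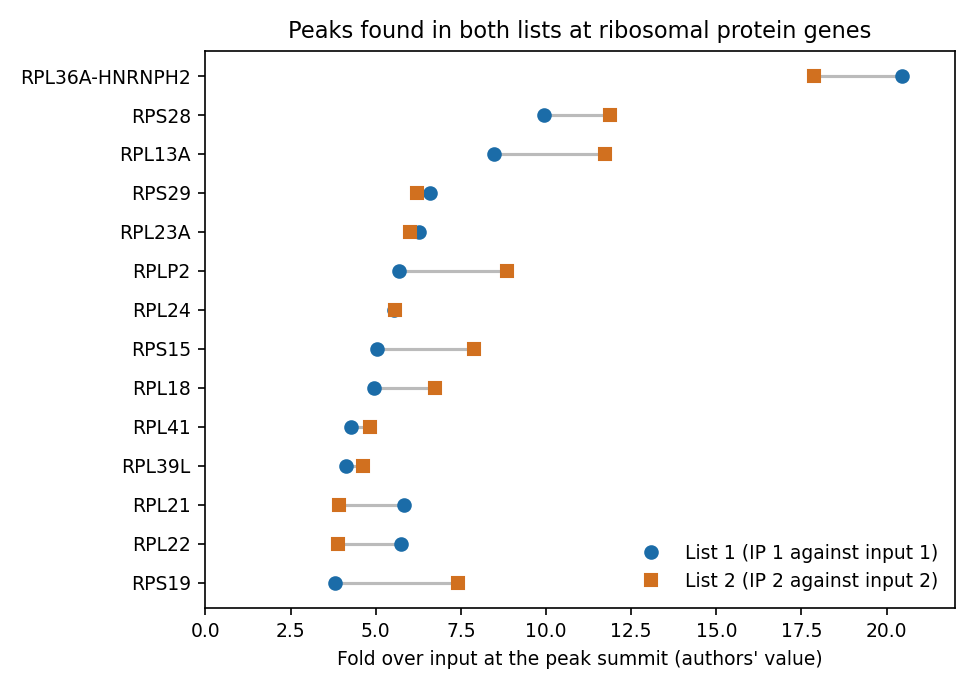
Fold over input of the 14 shared peaks at ribosomal protein genes in list 1 (blue circles) and list 2 (orange squares), ordered by the lower of both values. RPL36A-HNRNPH2 stands at 20.45 and 17.86 and RPS28 at 9.94 and 11.88, and the fold was higher in list 2 for 9 of the 14.

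Over all 14 shared pairs, the overlap ran from 554 to 1304 bp and the summits lay a median of 82.5 bp apart, with 7 of 14 within 100 bp. List 2 peaks were the wider ones in 11 of 14 pairs and held more tags in 11, although IP 2 was the smaller library. Shared start-site peaks of other genes had a median width of 1094.5 bp in list 1 and 1336 bp in list 2. Their median tags were 86 and 99, so wider peaks with more tags in list 2 were not particular to the members. FDRs differed between the lists: 8 of the 14 peaks were at 100% in list 1 and 1 was at 5% or less, whereas 8 were at 5% or less in list 2. High FDRs were common in list 1: of 7181 peaks at other genes, shared or not, 4327 were at 100% and 3.08% at 5% or less. Among shared start-site peaks, 5 of 9 were at 100% in list 1, against 671 of 1778 for other genes. In list 2, 5 of 9 were at 5% or less (55.6%), against 76.9% for other genes. Of the 14 pairs, 9 lay at a given start site of the member, with centres from 302.5 bp upstream to 183 bp downstream in list 1 and from 231.5 bp upstream to 376.5 bp downstream in list 2. RPL23A and RPL39L were at a gene end whose strand the tables used here do not give. The remaining 3 shared peaks, at RPS29, RPL41 and RPL36A-HNRNPH2, were centred near RN7SL1, ZC3H10, or GLA and HNRNPH2.

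**Figure D3:**
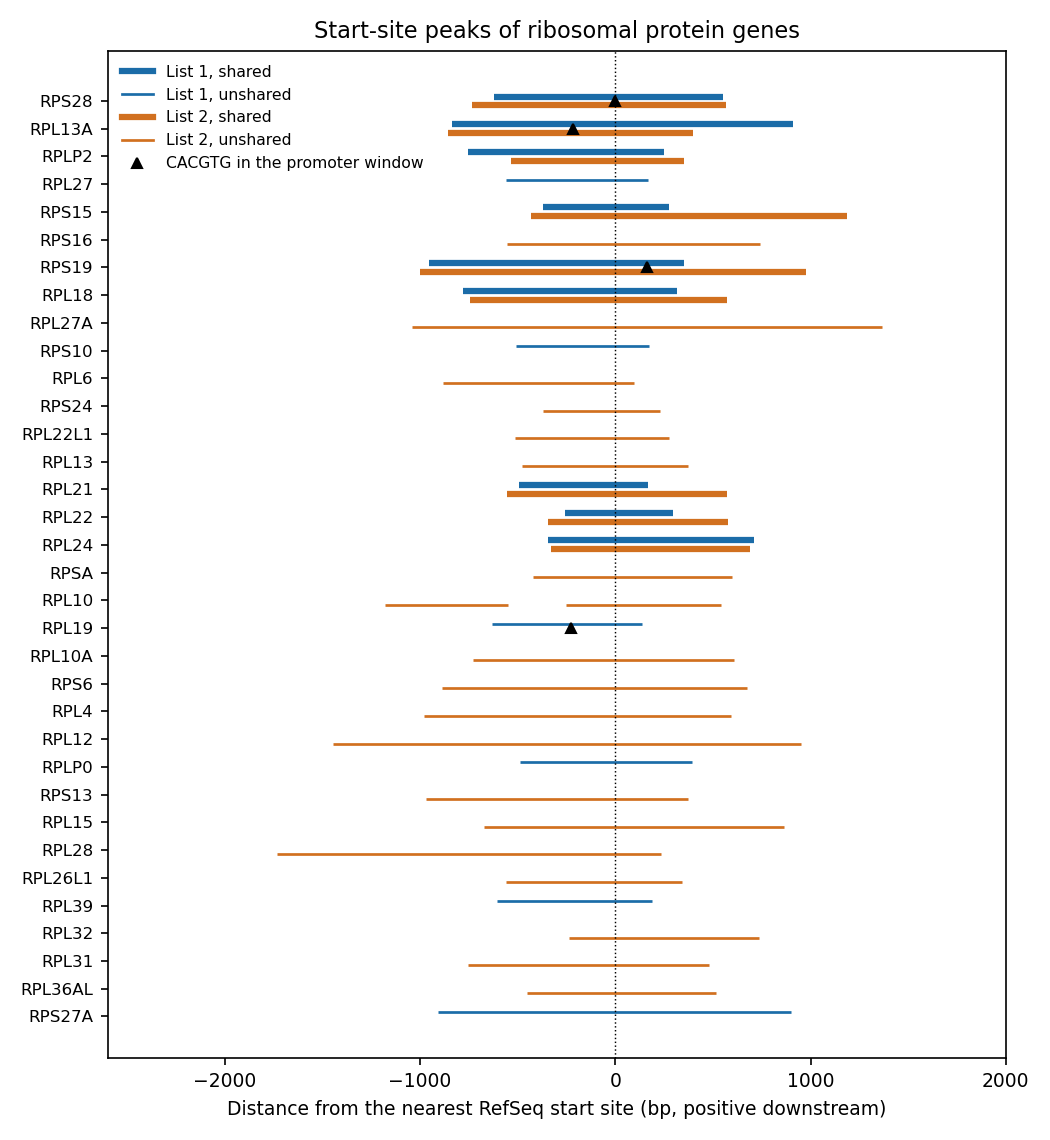
Extent of each start-site peak of a ribosomal protein gene relative to the nearest RefSeq start site, in list 1 (blue) and list 2 (orange), with thick bars for shared peaks and triangles for CACGTG. Genes are ordered by their highest fold; the triangles of RPS28, RPL13A, RPS19 and RPL19 all fall within peaks.

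Unshared peaks were fewer in list 1 than in list 2, with 7 peaks (38 to 114 tags) and 40 peaks (26 to 177 tags). In list 1 the highest was at RPL27, a large subunit protein, with 41 tags (8.37-fold, FDR 67.77%). It was followed by RPL17-C18orf32 (53 tags, 6.92-fold), a peak centred 15.5 bp from the C18orf32 start site. A single peak of 45 tags (6.42-fold) served both RPS10, a small subunit protein, and RPS10-NUDT3, and RPL19 had 38 tags (5.48-fold). These FDRs ran from 49.79% to 100%.

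Among the unshared peaks of list 2, RPS16, a small subunit protein, had 88 tags at its start site (7.51-fold, FDR 0.7%), and RPL13 had 81 tags at its 3' end (6.96-fold, FDR 0.93%). RPL3L, a paralogue of RPL3 found in heart and skeletal muscle, had 65 tags (6.74-fold, FDR 3.01%) in a peak centred 176 bp from the start site of MSRB1. RPS10-NUDT3 had peaks of 60 tags (6.73-fold) and 107 tags (3.29-fold) inside its span, distinct from its list 1 peak, and was the sole member with peaks in both lists that did not overlap.

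The most tags at any member in list 2 were at RPL12, near the base of the stalk, with 177 tags over 2398 bp (4.98-fold), and at RPL27A, with 172 tags over 2407 bp (6.58-fold). Their folds were below that of RPS28, which had 169 tags within 1302 bp. RPL8 had 162 tags over 2162 bp (4.17-fold, FDR 11.66%). RPL12, RPL27A and RPL8 had no list 1 peak. In list 2, 10 members carried 2 peaks each, and in list 1 none had more than 1. List 2 is the longer list, and this count was not made for other genes, so it does not set the members apart.

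**Figure D4:**
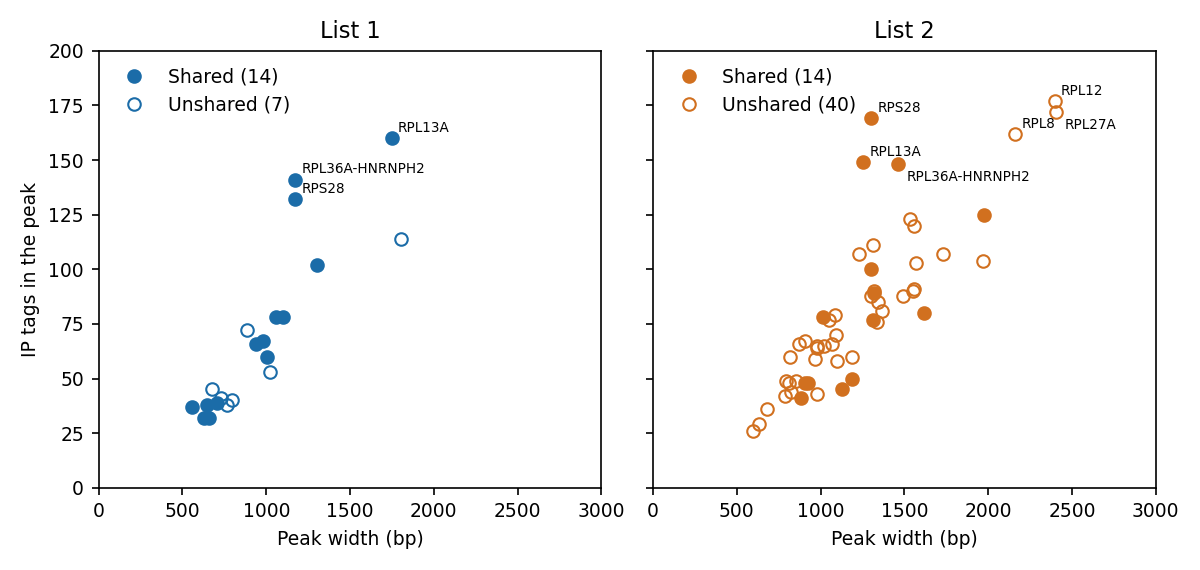
IP tags against peak width for every peak assigned to a ribosomal protein gene, in list 1 (left) and list 2 (right), filled where shared and open where not. RPS28 holds 132 and 169 tags within 1173 and 1302 bp, while RPL12 and RPL27A hold 177 and 172 tags over 2398 and 2407 bp in list 2.

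Start-site peaks of ribosomal protein genes had median folds close to those of other genes, but lower median tag counts and scores. In list 1 the median fold was 5.55 at 15 ribosomal protein peaks and 5.50 at 2308 peaks of other genes, and the median widths were 883 and 1037 bp. In list 2 the median fold was 5.5 at 29 ribosomal protein peaks and 5.44 at 4702 others, and the median widths 1232 and 1264.5 bp. Median tags were 60 against 78 for other genes in list 1, and 78 against 83 in list 2. Median scores (minus 10 times log10 of the caller's p) were 72.91 against 87.09 and 87.25 against 102.9. An FDR of 5% or less was held by 0 of 15 peaks in list 1 (others 6.98%). In list 2 it was held by 14 of 29 (48.3%, others 58.9%). Folds of at least 8 made up 20% of the ribosomal protein peaks and 17.0% of the others in list 1, and 10.3% and 17.3% in list 2. The start-site peaks overlapped a peak of the other list in 9 of 15 cases in list 1 (60%, others 77.9%) and 9 of 29 in list 2 (31.0%, others 38.1%). Over all peaks in or within 1 kb of a gene, median tags and scores were instead higher at ribosomal protein genes. Tags were 60 against 50 for other genes in list 1 and 77 against 56 in list 2. Scores were 72.91 against 71.63 and 92.69 against 73.91. Median folds were 5.68 against 5.75 and 5.51 against 5.45. An FDR of 5% or less was held by 50% in list 2 (others 36.4%). Overlap with the other list was 66.7% in list 1 (others 45.6%) and 25.9% in list 2 (others 22.3%).

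Facing genes shared some of these peaks. Head to head start sites of a second protein-coding gene, on the opposite strand and with both starts within 1 kb of the peak centre, were found for 9 members over both lists. A further 4 members, RPL10, RPL26L1, RPL39 and RPLP0, faced a lncRNA start site in this way. In list 2, 8 of 29 start-site peaks of ribosomal protein genes had the start site of a second protein-coding gene within 1 kb (27.6%), against 13.1% for other genes. In list 1 it was 3 of 15 (20%, others 14.4%), and among shared peaks 2 of 9 (22.2%, others 14.7%). The 2 shared pairs were RPS28 with NDUFA7, a protein of respiratory complex I, and RPL18 with SPHK2, a sphingosine kinase. The list 1 centre lay 84 bp from the NDUFA7 start site and 37 bp from that of RPS28, and the E-box of RPS28 also lay in the NDUFA7 window. At RPL18 the list 1 centre lay 97.5 bp from the SPHK2 start site and 230.5 bp from that of RPL18. By centre, the nearer gene in list 2 was the other one in both pairs. The list 2 centres lay 38.5 bp from the NDUFA7 start site and 82.5 bp from that of RPS28. They lay 242.5 bp from the SPHK2 start site and 85.5 bp from that of RPL18. By summit the order was reversed in both pairs and both lists. The summits lay 81 bp (list 1) and 18 bp (list 2) upstream of the RPS28 start site, nearer to NDUFA7 in list 1 and to RPS28 in list 2. They lay 108 bp and 266 bp upstream of the RPL18 start site, nearer to RPL18 in list 1 and to SPHK2 in list 2.

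The other 7 facing pairs had a peak in a single list. RPS27A, which encodes a ubiquitin fused to a small subunit protein, faced CLHC1 in list 1 (114 tags over 1804 bp, 3.21-fold). In list 2, RPL4 faced ZWILCH, a kinetochore gene (103 tags, 5.03-fold), RPL12 faced LRSAM1, a ubiquitin ligase, and RPL36AL faced MGAT2, an enzyme of N-glycan synthesis (59 tags, 3.32-fold). RPL15 faced NKIRAS1, RPL27A faced TRIM66 and RPL28 faced TMEM238. A second list 2 peak at RPL4, with 120 tags (5.52-fold), was 42.5 bp from the start site of SNAPC5 at the other end of the gene. Which gene of a pair a peak belongs to cannot be told from its position.

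Many ribosomal protein genes host small nucleolar RNAs (snoRNAs), which guide rRNA modification, in their introns. Of the 30 members with a snoRNA gene inside their span, 6 had a peak in list 1 (20%), 20 in list 2 (66.7%) and 4 a shared one (13.3%). Of the 60 without, 16 had one in list 1 (26.7%), 24 in list 2 (40%) and 10 a shared one (16.7%). The shares of all protein-coding genes were 25.9%, 47.0% and 16.8%, so the hosts stood farthest from them in list 2. The median lengths of both sets were 5013 and 5225 bp. The 4 hosts with a shared peak were RPL13A, RPL21, RPL23A and RPLP2, and this split was made after the peaks were seen.

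Other genes of the translation machinery were read from lists. FAU and RACK1, which encode small subunit proteins under other symbols, had no peak in either list. Of 16 elongation factors and other known TOP mRNA genes, 9 had a peak in list 1 (56.3%, all genes 25.9%), 12 in list 2 (75%, all genes 47.0%) and 9 a shared one (56.3%, all genes 16.8%). This list is short and was chosen with earlier results known, so the shares are descriptions. EEF1A1, the elongation factor that delivers tRNA, had 151 tags in IP 1 (7.85-fold, FDR 39.31%) and 166 in IP 2 (13.39-fold, FDR 0). EEF2, the translocase, had 83 and 115 tags (8.26-fold and 11.2-fold), with FDRs of 27.17% and 0.17%. The windows of EEF1A1 and EEF2 held no CACGTG. EIF3F, a subunit of initiation factor eIF3, had 120 and 106 tags (11.03-fold and 9.82-fold), with FDRs of 3.85% and 0.23% and a CACGTG 6.5 bp and 0.5 bp from the summits.

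EIF4B, a helicase cofactor, had 229 and 268 tags (7.95-fold and 7-fold), with FDRs of 1.02% and 0.17%. Its CACGTG was 29.5 bp and 94.5 bp from the summits. NPM1, the nucleolar chaperone, had 124 and 182 tags (6.04-fold and 7.1-fold), with FDRs of 55.12% and 0.14%. HNRNPA1, PABPC1, TPT1 and EIF3H were the others with a shared peak, at folds of 3.1 to 5.94. Their list 1 FDRs ran from 25.82% to 100%. Of 8 chaperone and import genes for ribosomal proteins, 1 had a peak in list 1 (12.5%), 5 in list 2 (62.5%) and 1 a shared one (12.5%), at TSR2, the chaperone of RPS26 (48 and 28 tags, 7.1-fold and 6.35-fold). Of 8 regulators, 4 had a peak in list 1 (50%), 3 in list 2 (37.5%) and 2 a shared one (25%). The shares of all genes were again 25.9%, 47.0% and 16.8%. These were LARP1, which binds TOP mRNAs and had 2 shared pairs (4.09-fold and 5.12-fold, 4.29-fold and 3.99-fold), and MDM2, the p53 ubiquitin ligase that RPL5 and RPL11 restrain (97 and 108 tags, 3.6-fold and 6.77-fold). RPL5 had a list 2 peak (70 tags, 6.37-fold) and RPL11 had none.

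The 1 kb limit cut through few peaks. The farthest inside it were those of RPL10, 863 bp from the gene, and RPL28, 750 bp, both in list 2. The nearest outside were those of RPL23A, 1130.5 bp away in list 2, and RPL17, 1262.5 bp away in list 1.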

How the data were processed

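The authors' peak caller was MACS 1.4.2 (p cutoff 1e-05), run on IP 1 with input 1 and IP 2 with input 2, at most 1 tag per position being kept and the larger library scaled down, per the file headers. Bowtie2, deepTools, HOMER and GRCh38 are named in the submitters' processing notes, with no role. The deposited columns give per peak a count of IP tags (not scaled to depth), a fold (ratio) over input, a score (minus 10 times log10 of the caller's p) and an FDR in percent from swapped IP and input. The labels do not say whether the replicates were separate cultures. Keeping 1 tag per position caps the count at the strongest peaks.

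Genes and start sites came from RefSeq tables of GRCh38.p14. Strand and start sites were given for 72 of the 90 ribosomal protein genes (89 windows). Peaks were assigned by centre, and counting was tested on simulated peaks. Shares have Wilson intervals at 95%. No test was made, since each list holds 1 IP. Python 3.11.15, numpy 2.4.6, pandas 2.3.3, scipy 1.17.1 and matplotlib 3.10.9 were used. Members and lists were chosen with earlier results of these data known. Named genes are all with a shared peak, the 5 unshared members of highest fold per list, members on a common peak, and pathway genes with a shared peak; others named were chosen after their values were seen, and some genes that the rule takes are not reported here.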

Additional observations from a re-analysis of the deposited data

How the results depend on the processing

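Shared peaks were at 14 members in the count reported, with peaks at 22 in list 1 and 44 in list 2. Within 500 bp or 5 kb of the gene, by summit, by overlap of 50% of the shorter peak (shared count), within 1 kb of either gene end (added after the data were seen) and without read-through and paralogue genes, each count stayed within 1.5 times its value. Within 1 kb of a start site, with 72 genes counted, 28 had a list 2 peak and 9 a shared one. At a fold of at least 8 the counts were 4 in list 1, 5 in list 2 and 3 shared (RPL36A-HNRNPH2, RPS28 and RPL13A), or 4.44%, 5.56% and 3.33% of members against 5.33%, 9.67% and 3.28% of all genes. At a score of at least 100 they were 7, 23 and 4 (7.78%, 25.6% and 4.44%, all genes 9.36%, 22.5% and 6.25%). At an FDR of at most 5% they were 1, 25 and 1, the single gene being RPL36A-HNRNPH2 (1.11%, 27.8% and 1.11%, all genes 1.33%, 25.9% and 1.3%). With summits within 100 bp, 7 members had a shared peak (7.78%, all genes 12.1%). Leaving out a replicate, so that 1 list stood alone, the count ranged from 22 to 44. All stricter thresholds leave fewer peaks by construction. No paired analysis was possible because no test was made and the peak calling had joined IP and input before deposit. Depth limits the weakest peaks, which held 26 tags in list 2 (RPS24) and 32 in list 1.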

Other observations

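Pseudogenes named for ribosomal proteins rarely carried peaks. Of 1994 such pseudogenes, 18 had a peak in or within 1 kb in list 1 (0.903%), 40 in list 2 (2.01%) and 7 a shared one (0.351%), against 1.32%, 2.74% and 0.539% of 14851 other pseudogenes. Their median lengths were 539 and 797 bp. By the lower of both folds, the highest of the shared ones was RPS17P12 (48 and 66 tags, 9.94-fold and 8.69-fold), followed by RPL35P1 (65 and 66 tags, 10.94-fold and 8.58-fold) and RPL21P75 (58 and 32 tags, 8.46-fold and 8.15-fold).

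Chromosome 19 held 12 ribosomal protein genes, of which 5 had a peak in list 1 (41.7%), 9 in list 2 (75%) and 5 a shared one (41.7%). The shares were 25.7%, 43.9% and 19.9% among 1439 other protein-coding genes there, and 21.8%, 44.9% and 11.5% among the 78 ribosomal protein genes elsewhere. The 5 were RPS28, RPS15, RPS19, RPL18 and RPL13A. The chromosome was picked after the peaks were seen and no test was made.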
